A study of Mus musculus with 24 samples.

Results

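After treatment with αGalCer/CD1d-NPs, some cells sorted as liver iNKT (LiNKT) cells carried none of Il10, Il21, Lag3 and the granzyme gene Gzma, and these cells are described here. They are the cells of treated mice in which the SmartSeq2 table of full-length single-cell RNA-seq listed at least 100000 counts in all, fewer than 100 counts of the macrophage genes Lyz2, C1qa and Csf1r summed, and fewer than 10 counts on each of the Tr1-like genes Il10, Il21 and Lag3 and on Gzma. The members were thus chosen by measured values, and 80 cells met the limits, of 282 treated cells and of 566 SmartSeq2 cells in both groups. They are compared with the 269 cells of untreated mice, of 284, that met the same limits, and set beside 82 treated cells with at least 10 counts on Il10, Il21 or Lag3 (Tr1-like cells) and 97 with at least 10 counts on Gzma and on none of those 3 (Gzma cells). A gene is called present in a cell, and the cell is said to carry it, at 10 counts or more. Other Tr1-associated genes were outside the rule, and some of the 80 cells carried several of them.

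Each group was a pool of 3 male mice aged 13 to 15 weeks of the NOD strain, in which autoimmune diabetes arises without intervention. Treated mice were given 20 µg of αGalCer/CD1d-NPs, nanoparticles that display mouse CD1d loaded with the glycolipid αGalCer, 2 times a week for 5 weeks, and the other mice were untreated. From both, live liver cells with intermediate TCRβ that bound αGalCer-loaded CD1d tetramers were sorted singly into plates. The mice of a group cannot be told apart in the tables, so that each group is 1 sample and no difference between groups has a test or a replicate check. Intervals given below are exact 95% binomial intervals for shares of cells or chains. They cover counting error alone and treat cells pooled from 3 mice as independent. SmartSeq2 reads without molecular identifiers are not independent molecules, so that levels are given without an interval.

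iNKT cells are T cells with a semi-invariant TCR that recognises glycolipids on CD1d. In the mouse the TCRα chain joins TRAV11 to TRAJ18 and pairs with a few TRBV families. They populate the liver, where CXCR6 helps to retain them, carry receptors otherwise known from NK cells, and release cytokines and cytotoxic granules soon after activation. Lasting stimulation through the TCR can turn some of them into Tr1-like cells, which make IL-10 and IL-21 and bear LAG-3.

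The limits kept 80 of 259 treated cells past the depth and macrophage limits (30.9%, 25.3 to 36.9) and 269 of 280 untreated cells (96.1%, 93.1 to 98.02). The treated cells compared are therefore a selected minority and the untreated ones nearly the whole group. Few cells lay near the limits. Among the treated cells, 2 had 1 to 9 counts of Il10 (highest 9), 2 of Il21 (highest 7), 3 of Lag3 (highest 3) and 0 of Gzma. The lowest values past the limit were 21, 13, 20 and 60 counts in the same order. Of the 80 cells, 1 held 1 count of Il21 and 1 held 2 counts of Lag3. None held a count of Lyz2, C1qa or Csf1r; the lowest sum among the 13 treated cells left out for these genes was 439. The shallowest of the 80 cells had 168254 counts, and the deepest treated cell left out had 84020.

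The 80 cells were sequenced about as deeply as the untreated ones. They held a median of 590018 counts (168254 to 1225380) against 636804 (101709 to 1398716), and a median of 845.5 genes with reads per cell (475 to 2008) against 866 (458 to 2052). With each cell thinned to 100000 reads, the medians were 643.5 and 672 genes. Mitochondrial transcripts made up a median of 1.36% and 1.38% of the counts. The column names give 2 sequencing lanes; lane 1 held 59 of the 80 treated and 182 of the 269 untreated cells.

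Nearly all of the 80 cells carried T cell transcripts. Trac, the constant part of the TCRα chain, had at least 10 counts in 62 cells, Cd3e, a chain of the CD3 complex, in 66, and Nkg7, a protein of cytotoxic granules, in 69. The shares were 77.5%, 82.5% and 86.2%, beside 81.4%, 77.0% and 86.2% of the untreated cells. All 3 genes were present in 48 cells, 2 of them in 24, and 1 in 5.

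Of the remaining 3 cells, 2 had no T cell transcripts. Both carried Alb, the serum protein made by hepatocytes, at 1986 and 3992 counts, along with Tat (7976 and 8657 counts), a liver enzyme of tyrosine breakdown. Neither had at least 10 counts on any of 15 genes that mark iNKT cells, and Ptprc, the leukocyte marker CD45, was listed at 0 in both. The sort was set for live TCRβ+ tetramer+ cells, a gate that leaves hepatocytes out. Both cells came from lane 2, and no untreated cell, Gzma cell or Tr1-like cell carried Alb. They meet the rule and are kept in the values below; the counts over all genes, the medians of the main lists and the numbers of list genes per cell are also given without them. At least 1 of 8 hepatocyte genes was present in 7 of the 80 cells and in 1 untreated cell; in the other 5 of these 7 cells the gene was Trf, which encodes transferrin.

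Most TCRα chains rebuilt from the 80 cells were those of iNKT cells. The study's list of chains rebuilt from the reads gives a TCRα chain for 60 of these cells. Of these chains 57 (95%, 86.1 to 99.0) joined TRAV11 to TRAJ18. In the untreated cells 202 of 204 did (99.0%, 96.5 to 99.9). No TCR chain was rebuilt in the 2 Alb+ cells. The sequences at the V to J junction recurred between cells. The 5 commonest ones of the 80 cells are shown because they make up most of the invariant chains; they are printed 5′ to 3′ and wholly in capitals, as the list gives them.
Junction 1: GGGCGATAGA
Junction 2: GTGGGGGATAG
Junction 3: GTGGGTGATAG
Junction 4: GGCCGATAGA
Junction 5: GTGGGAGATA
Junction 1 was found in 25 of the 57 treated chains (43.9%) and 78 of the 203 untreated chains (38.4%), junction 2 in 13 and 56, junction 3 in 6 and 30, junction 4 in 5 and 4, and junction 5 in 5 and 27. Junctions 1 to 3 were also the 3 commonest in the untreated cells. Junctions 4 and 5 each made up 8.77% of the treated chains, and 1.97% and 13.3% of the untreated ones.

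Among TCRβ chains, TRBV13-2 was used by 43 of the 69 cells with a TCRβ chain (62.3%, 49.8 to 73.7) and by 122 of 220 untreated cells (55.5%, 48.6 to 62.1), and TRBV29 by 10 (14.5%, 7.17 to 25.0) and 42 (19.1%, 14.1 to 24.9). In the Gzma cells TRBV29 was used by 27 of 82 (32.9%, 22.9 to 44.2). The intervals of treated and untreated cells overlap for both families.

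Of the 57 cells with both chains, 55 had a pair seen in no other cell. The other 2 belonged to a clonotype of 5 treated cells, whose remaining 3 cells carried Gzma. It pairs junction 1 with a TRBV13-3 to TRBJ2-1 rearrangement, shown because it links these cells to the Gzma cells.
TCRβ junction of the shared clonotype: AGTGACAGCTATG
Its 2 cells without Gzma had 1498 and 1219 counts of Gzmb and 1531 and 2236 counts of Ccl5, and Gzma was listed at 0 in both. The Gzma cells had 60, 10676 and 13662 counts of Gzma, 2392, 0 and 1166 counts of Gzmb, and 2932, 3878 and 3068 counts of Ccl5. All 5 cells thus carried Ccl5 and all but 1 carried Gzmb, while Gzma separated them by the rule. No clonotype was shared between the 80 cells and the Tr1-like or the untreated cells.

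The comparison of treated with untreated cells describes how the groups differed among cells that carried none of Il10, Il21, Lag3 and Gzma. Treatment, the selection of the cells and the pool of mice cannot be told apart in it. Within each group the cells' counts were added up and expressed per 1000000 counts (CPM). The log2 ratio of treated to untreated CPM was taken after adding 1 CPM to each. Genes with at least 500 counts over both groups and reads in 10% or more of either group's cells were compared, 2131 in all. Of these, 201 (9.43%) were at least 2-fold higher and 198 (9.29%) at least 2-fold lower in the treated cells, and the median log2 ratio was 0.01. Without the Alb+ cells the counts were 203 and 203 of 2112 genes. A gene could pass the filter through the group in which it was high alone, so that its call followed in part from the filter.

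The gene lists fell into 3 patterns. NK receptors were higher in the treated cells. Of 23 listed genes 16 passed the filter. Among those, 11 were at least 2-fold higher (68.8%, against 9.43% of all genes) and 0 at least 2-fold lower, with a median log2 ratio of 1.18. Members such as Klra9 could pass the filter through the treated cells alone, where they were high. Immediate early genes, the transcription factors and phosphatases switched on within minutes of a stimulus, were lower: 14 of 23 passed the filter, and 8 of these were at least 2-fold lower (57.1%) and 0 at least 2-fold higher, with a median of -1.05. Most other lists centred near 0, among them TCR signalling (median 0.08), effector cytokines and chemokines (-0.08) and the interferon response (-0.02). The identity of iNKT cells did too, with a median of 0.12. Of its 13 genes 2 were at least 2-fold higher (15.4%, against 9.43% of all genes).

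**Figure D1:**
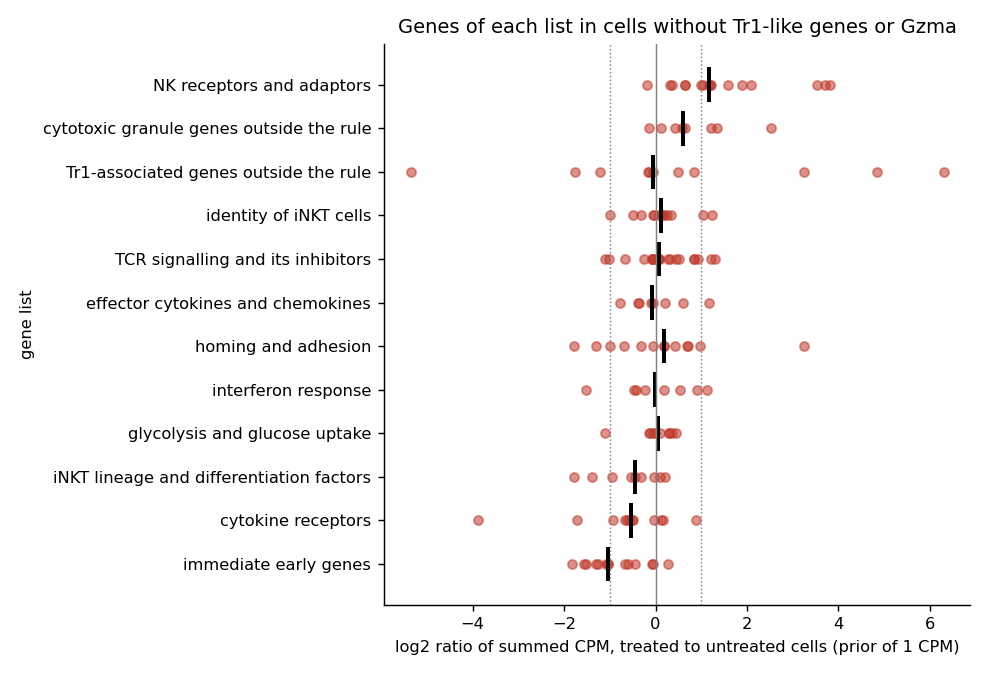
Each point is a gene that passed the filter, placed by its log2 ratio of treated to untreated CPM (horizontal axis), with 1 row per gene list; the black bars are list medians and the dotted lines mark 2-fold. The bar lies at 1.18 for the NK receptors, at -1.05 for the immediate early genes and between -0.55 and 0.61 for the other lists shown.

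Several of the NK receptors with large ratios belong to the Ly49 family, lectin-like receptors for MHC class I encoded side by side on chromosome 6. Klra5 (GRCm38 chr6:129898996-129917650) was present with at least 10 counts in 30 of the 80 cells (37.5%, 26.9 to 49.0) and in 19 of the 269 untreated cells (7.06%, 4.31 to 10.8). Its summed level was 1339 against 102 CPM, a log2 ratio of 3.70. In the cells that carried it, it ranged from 332 to 9187 CPM with a median of 2451 in the treated cells, and from 18.5 to 3090 CPM with a median of 1769 in the untreated ones. The levels per carrying cell overlapped, while the share of carrying cells was higher in the treated group.

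Klra1 (chr6:130363917-130386874) was present in 38 treated cells (47.5%, 36.2 to 59.0) and 42 untreated cells (15.6%, 11.5 to 20.5), with a log2 ratio of 2.08. Klra9 was present in 12 (15.0%) and 5 (1.86%) cells, with a log2 ratio of 3.53, and Klra8, of the NK cell list, in 9 (11.2%) and 3 (1.12%), with a log2 ratio of 2.76. Ly49 genes are near-identical in places, and counting can split or misplace their reads. All 38 treated cells with Klra1 also carried Klra4, which was present in 40 cells. The NOD strain moreover has its own set of Ly49 genes, so that the name of the gene behind these counts is uncertain.

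Several receptors and adaptors outside the Ly49 family were higher too, though not all of them in each lane or within sub-cluster 2. Fcer1g, a signalling adaptor of activating receptors, was present in 28 treated cells (35.0%, 24.7 to 46.5) and 28 untreated cells (10.4%, 7.03 to 14.7), with a log2 ratio of 1.89. It was 2.64 in lane 1 and -1.07 in lane 2, so that the direction differed between lanes. Klrc2, an activating receptor of the NKG2 family, was present in 21 (26.2%) and 28 (10.4%) cells, with a log2 ratio of 1.58. Its inhibitory relative Klrc1 and their shared partner Klrd1 had log2 ratios of 1.19 and 1.21. Klrb1f was present in 7 and 4 cells, with a log2 ratio of 3.82, which was -0.10 among the cells that the study labels sub-cluster 2. Klrb1c, the NK1.1 receptor, had a log2 ratio of 1.04, which was -2.95 in sub-cluster 2, with 61.5% of its treated counts in 1 cell. Klrk1, the activating receptor NKG2D, was within 2-fold, with 0.64.

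The list as a whole was higher within each lane, with medians of 1.35 and 0.95 (1.09 in lane 2 without the Alb+ cells), and 1.22 in both lanes without them. In lane 1, 11 of 16 genes were at least 2-fold higher and 0 lower, beside 15.05% and 11.99% of all genes there. In lane 2, 7 were higher and 1 lower, beside 22.0% and 24.2% of all genes there. A treated cell carried a median of 5 of the listed genes (0 to 9), an untreated cell 2 (0 to 10), a Gzma cell 7 (1 to 14) and a Tr1-like cell 1 (0 to 11). At least 3 of them were present in 58 of the 80 cells (72.5%, 61.4 to 81.9) and in 95 of the untreated cells (35.3%, 29.6 to 41.4). With cells thinned to 100000 reads and any read counted, the shares were 72.5% and 36.8%. Without the Alb+ cells the treated share was 74.4%, unthinned. In the median number of NK receptors per cell, the 80 cells thus lay between the untreated and the Gzma cells.

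Of 6 genes that mark NK cells and ILC1, the 2 that passed the filter, Klra4 and Klra8, are Ly49 genes. Both were at least 2-fold higher, as were 9.43% of all genes. Klra8 could pass the filter through the treated cells alone, where it was high. At least 1 of the 6 was present in 46 of the 80 cells and 65 of the untreated cells, and their summed level per cell reached 10228 CPM in the treated and 7719 CPM in the untreated cells. The others were Ncr1, in 7 and 10 cells, and Tnfsf10, in 3 and 11, while Eomes reached 10 counts in 0 of both and Itga2 in 0 and 6. Klra4 had a log2 ratio of 1.52. All 30 treated cells with Klra5 carried transcripts of Trac, Cd3d, Cd3e or Cd3g, and a TCR chain was rebuilt in 29 of them. T cell transcripts were likewise present in all 28 cells with Fcer1g and all 7 with Ncr1.

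Cytotoxic granule genes were higher in part. Of 15 listed genes 8 passed the filter, 3 of them were at least 2-fold higher (37.5%, against 9.43% of all genes) and 0 at least 2-fold lower, with a median of 0.61. Gzmb, the granzyme that cleaves after aspartate, was present in 38 treated cells (47.5%, 36.2 to 59.0) and 61 untreated cells (22.7%, 17.8 to 28.2). Its level was 2354 against 1022 CPM, a log2 ratio of 1.20, with 1.54 in lane 1 and 0.08 in lane 2. Serpinb9, which protects cytotoxic cells from granzyme B, was present in 10 (12.5%) and 6 (2.23%) cells, with a log2 ratio of 2.52. It could pass the filter through the treated cells alone, where it was high. Cst7, an inhibitor of cathepsins that activate granzymes, had a log2 ratio of 1.34, with 1.84 in lane 1 and -0.43 in lane 2. The granule genes Nkg7 and Ctsw were close to equal, with log2 ratios of 0.12 and -0.13.

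Among effector cytokines and chemokines, 1 of the 8 genes that passed was at least 2-fold higher, near the 9.43% of all genes. This was Ccl5, a chemokine for T cells and NK cells, present in 55 treated cells (68.8%, 57.4 to 78.7) and 142 untreated cells (52.8%, 46.6 to 58.9), with a log2 ratio of 1.17. Ifng and Xcl1 had log2 ratios of -0.06 and -0.35. The Gzma cells carried Gzmb in 80.4% and Ccl5 in 100% of cells, so that the shares of the 80 cells lay between theirs and those of the untreated cells.

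**Figure D2:**
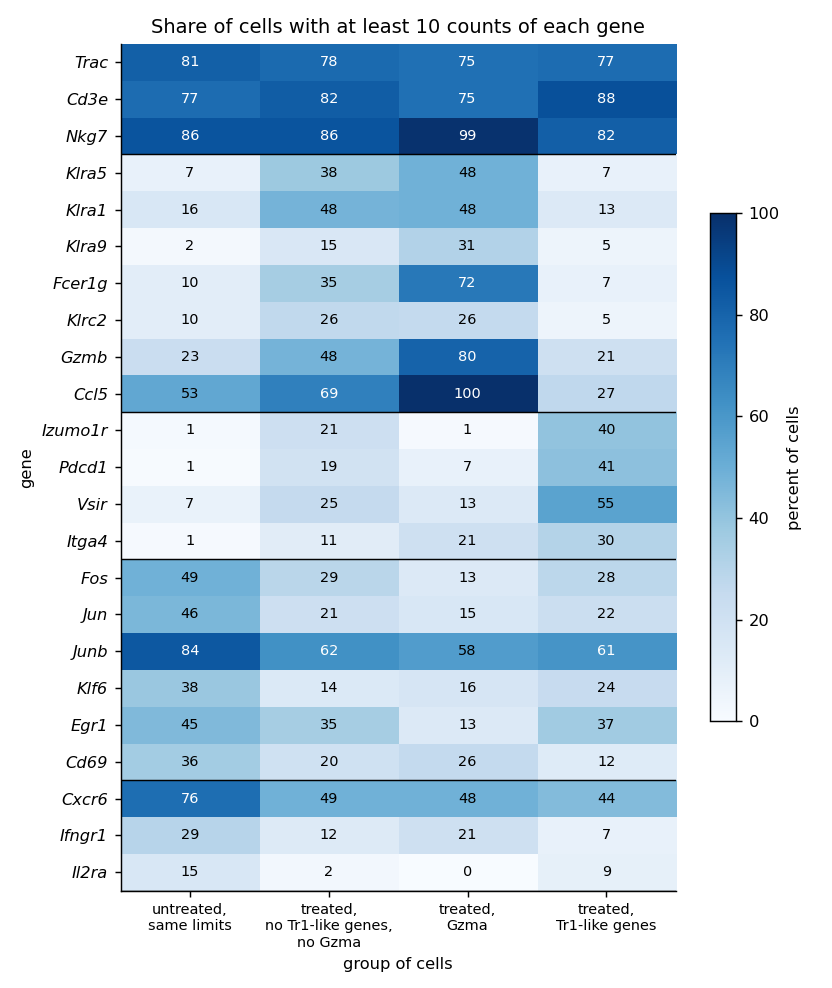
The numbers and shades give the percentage of cells with at least 10 counts of a gene (rows) in 4 groups of cells (columns): 269 untreated and 80 treated cells that met the limits, 97 treated Gzma cells and 82 treated Tr1-like cells. Klra5 goes from 7.06% in untreated cells to 37.5% in the 80 treated cells and 48.5% in Gzma cells, and Izumo1r from 1.49% to 21.2% and 40.2% in Tr1-like cells.

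The 12 genes with the highest ratios by the naming rule (reads in 20% or more of either group's cells and a difference of at least 5 percentage points in the share of cells that carried the gene) were Izumo1r, Klra5, Klra9, Vsir, Capg, Klra1, Spn, Ikzf3, Fcer1g, Klrc2, Pycard and Snord118. Izumo1r (chr9:14885814-14903949), the folate receptor family member found on regulatory and exhausted T cells, was present in 17 treated cells (21.2%, 12.9 to 31.8) and 4 untreated cells (1.49%, 0.407 to 3.76). Its level was 527 against 17.5 CPM, a log2 ratio of 4.83. Vsir, the checkpoint protein VISTA, was present in 20 (25.0%) and 18 (6.69%) cells, with a log2 ratio of 2.43. Capg, which caps actin filaments, was present in 16 and 18 cells (log2 ratio 2.08), Ikzf3, the lymphoid transcription factor Aiolos, in 17 and 27 (1.97), and Pycard, the inflammasome adaptor ASC, in 18 and 26 (1.56). In lane 2 alone the ratios of Capg, Ikzf3 and Pycard were inside 2-fold (0.93, 0.44 and 0.94). Spn, the sialoprotein CD43, had a log2 ratio of 2.07, with 4.48 in lane 1 and -0.80 in lane 2.

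Genes associated with Tr1 cells, other than those of the rule, differed in both directions. Of 30 listed genes 11 passed, 3 were at least 2-fold higher and 3 at least 2-fold lower (27.3% each, against 9.43% and 9.29% of all genes), with a median of -0.06, which was -0.17 in lane 1, 0.98 in lane 2 and -0.86 among cells of sub-cluster 2. The higher ones were Izumo1r, Pdcd1, which encodes the checkpoint receptor PD-1, and Itga4, an integrin chain for homing. These 3 could pass the filter through the treated cells alone, where they were high, so that the shares are a description. Pdcd1 (chr1:94038305-94052553) was present in 15 treated cells (18.8%, 10.9 to 29.0) and 2 untreated cells (0.743%, 0.0902 to 2.66). Its level was 786 against 8.97 CPM, a log2 ratio of 6.30. In the 15 cells it ranged from 390 to 13403 CPM, with a median of 4021. Itga4 was present in 9 and 3 cells, with a log2 ratio of 3.25.

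The lower ones were Il2ra, the α chain of the IL-2 receptor, Bhlhe40, a transcription factor of cytokine production, and Cd226, an activating receptor. Il2ra was present in 2 treated cells (2.5%, 0.304 to 8.74) and 41 untreated cells (15.2%, 11.2 to 20.1), at 1.36 against 95.8 CPM, a log2 ratio of -5.36. Bhlhe40 was present in 3 and 33 cells, with a log2 ratio of -1.75, and Cd226 in 11 and 67, with -1.21. Bhlhe40 and Cd226 were lower in the Tr1-like cells too, at 29.2 and 68.1 CPM against 288 and 369 CPM in the untreated cells. Il2ra and Bhlhe40 could pass the filter through the untreated cells alone, where they were higher. Maf, a transcription factor of IL-10 producing T cells, was within 2-fold (log2 ratio -0.17) but was present in 12 of the 80 cells and in 13 of the 269.

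At least 3 of the 30 Tr1-associated genes were present in 30 of the 80 cells (37.5%, 26.9 to 49.0), 54 of the untreated cells (20.1%, 15.5 to 25.4), 19 of the Gzma cells (19.6%, 12.2 to 28.9) and 62 of the Tr1-like cells (75.6%, 64.9 to 84.4). After thinning, with any read counted, the shares of the 80 and of the untreated cells were 42.5% and 20.4%. Without the Alb+ cells the treated share was 38.5%, unthinned. A single treated cell carried 10 of them, and the untreated cells carried at most 6. Some of the 80 cells thus carried several Tr1-associated genes while Il10, Il21 and Lag3 were, by the rule, under 10 counts.

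**Figure D3:**
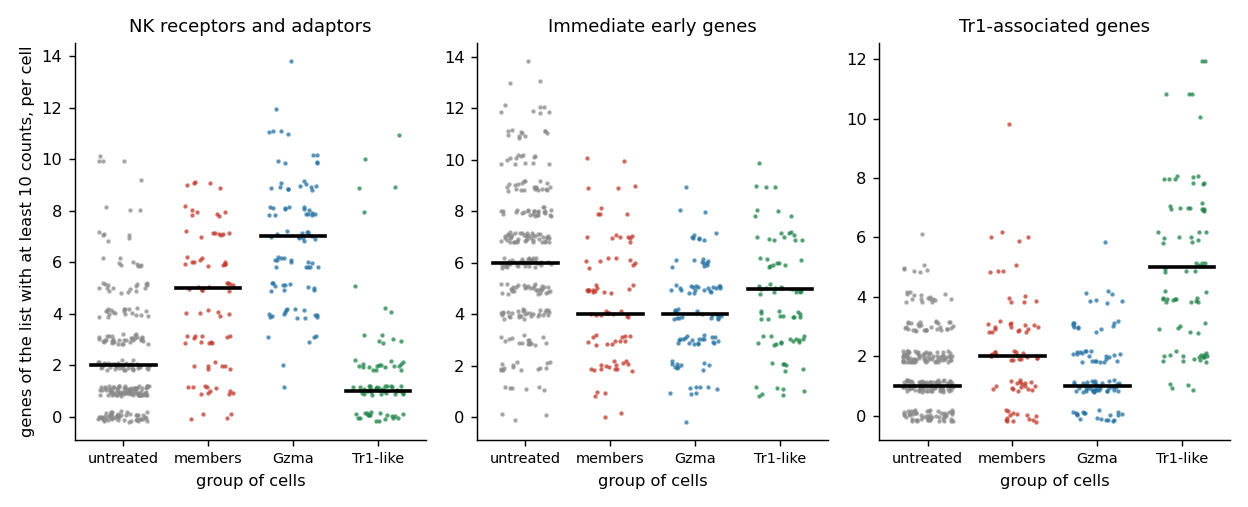
Each point is a cell, placed by the number of genes of a list with at least 10 counts (vertical axis, slightly scattered), for the untreated cells, the 80 treated cells (members), the Gzma cells and the Tr1-like cells; the black bars are medians. The bars of the 80 cells lie at 5 NK receptors, 4 immediate early genes and 2 Tr1-associated genes, and those of the untreated cells at 2, 6 and 1.

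Among the 80 cells, genes frequent in Gzma cells and genes frequent in Tr1-like cells were mostly carried by different cells. These genes were picked after their values were seen, and the counts are a description. The lanes differed in them. Lane 1, with 59 of the 80 cells, held 7 cells with Izumo1r, 7 with Pdcd1, 24 with Klra5 and 25 with Fcer1g. Lane 2, with 21 cells, held 10, 8, 6 and 3. Neither co-carriage nor the split below was counted within lanes. Klra5 was present in 30 of the 80 cells and Pdcd1 in 15, and 0 cells carried both. Likewise 0 cells carried both Klra5 and Maf, or both Pdcd1 and Fcer1g. The other treated cells were less separate. Of the 7 Gzma cells with Pdcd1, 3 carried Klra5 and 3 Fcer1g, while 0 Gzma cells carried both Klra5 and Maf. Of the 6 Tr1-like cells with Klra5, 2 carried Pdcd1 and 3 Maf, while 0 Tr1-like cells carried both Pdcd1 and Fcer1g. By contrast, of the 17 cells with Izumo1r, 7 carried Pdcd1 and 9 Vsir, beside 15 and 20 of all 80. Of the 30 cells with Klra5, 17 carried Fcer1g and 20 Gzmb, beside 28 and 38 of all 80. Of the 38 cells with Gzmb, 35 carried Ccl5, beside 55 of all 80. Klra5 and Izumo1r were together in 4.

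In all, 24 of the 80 cells (30.0%) carried Izumo1r, Pdcd1 or Maf and neither Klra5 nor Fcer1g, 35 (43.8%) carried Klra5 or Fcer1g and none of the other 3 genes, 6 carried genes of both kinds, and 15 (18.8%) carried none of the 5, among them the Alb+ cells. In the untreated cells these were 17 (6.32%), 39 (14.5%), 2 and 211 (78.4%). Since these genes were picked for their higher share in the treated cells, the difference between the groups in these counts follows from the choice. Of the 35 cells with Klra5 or Fcer1g, 34 carried Ccl5 and 26 Gzmb; of the 24 cells with Izumo1r, Pdcd1 or Maf, 9 carried Ccl5, 5 Gzmb and 11 Vsir.

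The study gives most cells a sub-cluster, which was computed from the same counts and is no independent evidence. Of the 80 cells 37 were in sub-cluster 4, 31 in sub-cluster 2 and 7 in sub-cluster 5, and 5 had none. Sub-cluster 5 is the one that the study describes as Tr1-like. Of the untreated cells 223 were in sub-cluster 2 and 35 in sub-cluster 4. The Gzma cells were mostly in sub-cluster 4 (88 of 97) and the Tr1-like cells mostly in sub-cluster 5 (49 of 82). Among cells of sub-cluster 2 alone, 31 treated and 223 untreated, the medians were 1.01 for the NK receptors and -0.69 for the immediate early genes. Of 16 NK receptors 8 were at least 2-fold higher there and 2 lower, beside 11 and 0 among all cells. Of 14 immediate early genes 4 were at least 2-fold lower there, beside 8 among all cells. Other lists moved as well. The cytotoxic granule genes had a median of 0.04 with 1 of 8 at least 2-fold higher. The lineage factors had a median of 0.18, and the cytokine receptors -1.28 with 7 of 12 at least 2-fold lower. Of all genes compared among these cells 14.8% were at least 2-fold higher and 18.8% lower.

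The immediate early genes were lower in the 80 cells than in the untreated ones. Fos, a subunit of the AP-1 transcription factor, was present in 23 of the 80 cells (28.8%, 19.2 to 40.0) and 131 of the untreated cells (48.7%, 42.6 to 54.8), at 805 against 1981 CPM, a log2 ratio of -1.30. In the cells that carried it, it ranged from 120 to 8594 CPM with a median of 2083 in the treated cells, and from 14.2 to 23565 CPM with a median of 2879 in the untreated ones. Its partner Jun was present in 17 (21.2%) and 123 (45.7%) cells, with a log2 ratio of -1.26, and Junb in 50 (62.5%) and 227 (84.4%), with -1.09. Fosb had a log2 ratio of -1.52. The level per carrying cell overlapped for Fos, and fewer of the treated cells carried each of the AP-1 genes.

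Klf6, a zinc finger factor induced by growth signals, was present in 11 (13.8%, 7.07 to 23.3) and 103 (38.3%, 32.5 to 44.4) cells, with a log2 ratio of -1.57. Egr1, an early factor downstream of the TCR and of ERK, had a log2 ratio of -1.83. Dusp1, a phosphatase that switches off MAP kinases, was present in 41 (51.2%) and 192 (71.4%) cells, with a log2 ratio of -1.05. Within 2-fold were Zfp36 and Btg2, which speed the decay or limit the growth effects of early transcripts (-0.66 and -0.46), Nfkbia, the NF-κB inhibitor (-0.60), Dusp2 (-0.08), Btg1 (-0.07) and Nr4a1, a reporter of TCR signals (0.28, with 52.9% of its treated counts in 1 cell). The list was thus uneven, with the AP-1 genes, Egr1 and Klf6 the furthest down. Nr4a1 was the only gene above 0. In lane 1, and without the cell richest in each gene, all 14 genes were below 0. Leaving out the richest cell also moved the median of all genes to -0.14. In lane 2, 3 genes were above 0. There 2 were at least 2-fold higher and 6 lower, beside 22.0% and 24.2% of all genes. After thinning to equal depth, 3 were above 0.

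A treated cell carried a median of 4 of the 23 listed genes (0 to 10), an untreated cell 6 (0 to 14), a Gzma cell 4 (0 to 9) and a Tr1-like cell 5 (1 to 10). After thinning to equal depth the medians of the treated and untreated cells were 5 and 7. The list median was -1.03 in lane 1 and -0.84 in lane 2 (-0.69 without the Alb+ cells), and -1.02 in both lanes without them. Among treated cells with Izumo1r, Pdcd1 or Maf alone, the mean was 5.04 ± 2.31 of these genes (SD over cells, n = 24), against 6.82 ± 2.79 in untreated cells of that kind (n = 17). With Klra5 or Fcer1g alone it was 3.83 ± 1.95 (n = 35) against 5.56 ± 2.47 (n = 39), and with none of the 5 genes 4.13 ± 2.47 (n = 15) against 6.45 ± 2.75 (n = 211). The means were lower in treated cells of each of these 3 kinds, by less than 1 SD over cells; without the Alb+ cells the last treated mean was 4.62 ± 2.26 (n = 13). In the few cells with genes of both kinds the treated and untreated means were 7 (n = 6) and 4.5 (n = 2).

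The 12 genes with the lowest ratios by the same rule were Dock10, Tsc22d3, Tespa1, Egr1, Gramd3, Rabac1, Ifngr1, Rab1b, Lyst, Dusp6, Klf6 and Fosb. Tsc22d3, the glucocorticoid-induced leucine zipper, was present in 9 treated cells (11.2%, 5.28 to 20.3) and 82 untreated cells (30.5%, 25.0 to 36.4), with a log2 ratio of -2.09. Dusp6, the phosphatase of ERK, was present in 5 (6.25%) and 53 (19.7%) cells, with a log2 ratio of -1.59. Tespa1, a protein of TCR signalling in thymocytes, had -1.84, Rabac1, of vesicle traffic, -1.75, and Lyst, the lysosomal trafficking protein, -1.62. A single treated cell held 58.9% of the counts of Gramd3, 54.9% of those of Lyst and 45.9% of those of Dock10. With the cell richest in the gene left out of each group these ratios were -2.86, -2.61 and -2.84. Leaving out a treated cell with so large a share lowers the treated level, so that these values are no check of the lower ratios.

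**Figure D4:**
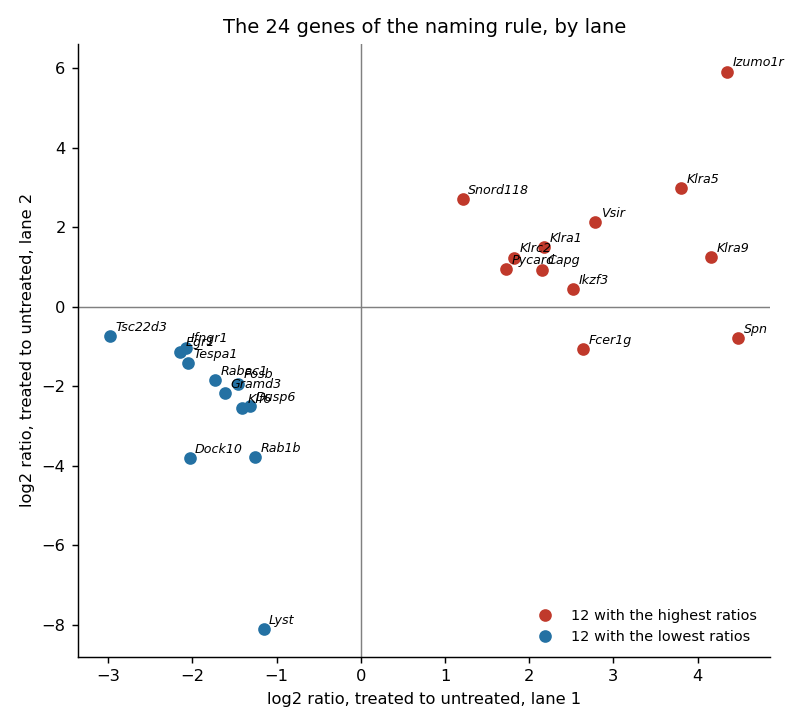
Each point is 1 of the 24 genes with the highest (red) or lowest (blue) ratios by the naming rule, placed by its log2 ratio of treated to untreated CPM among cells of lane 1 (horizontal axis) and of lane 2 (vertical axis). All but Fcer1g and Spn have the same sign in both lanes; lane 2 holds 21 treated cells.

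Of 22 listed cytokine receptors 12 passed, and 9 had a ratio below 0, as had 1042 of the 2131 genes compared. At least 2-fold lower were 2 of the 12 (16.7%, against 9.29% of all genes) and 0 were at least 2-fold higher, with a median of -0.55. Ifngr1, the ligand-binding chain of the IFN-γ receptor, was present in 10 treated cells (12.5%, 6.16 to 21.8) and 79 untreated cells (29.4%, 23.99 to 35.2), with a log2 ratio of -1.72. Il4ra, a chain of the IL-4 and IL-13 receptors, was present in 2 and 28 cells, with a log2 ratio of -3.88. It could pass the filter through the untreated cells alone, where it was higher. Il2rb, the β chain of the IL-2 and IL-15 receptors on which iNKT cells depend, was within 2-fold (-0.49), and so was the common γ chain Il2rg (-0.03).

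Among genes of homing and adhesion, 1 of 13, Itga4, was at least 2-fold higher (7.69%, against 9.43% of all genes). At least 2-fold lower were 2 (15.4%, against 9.29% of all genes). Cd69, an early activation marker that holds lymphocytes in tissue, was present in 16 treated cells (20%, 11.9 to 30.4) and 96 untreated cells (35.7%, 30.0 to 41.7), with a log2 ratio of -1.30. Klf2, a factor of T cell recirculation that is also counted among the lineage factors below, was present in 5 and 24 cells, with a log2 ratio of -1.77. Cxcr6 (chr9:123806475-123811760), the receptor that retains iNKT cells in the liver, lay just inside 2-fold with a log2 ratio of -0.996. It was present in 39 treated cells (48.8%, 37.4 to 60.2) and 204 untreated cells (75.8%, 70.3 to 80.8), at 2334 against 4655 CPM. Its share was 48.5% in the Gzma cells and 43.9% in the Tr1-like cells, both inside the interval of the 80 cells. Cxcr3 had a log2 ratio of -0.07.

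Of 9 lineage factors compared, 2 were at least 2-fold lower, Klf2 and Rora, and 0 at least 2-fold higher, with a median of -0.46 (22.2% lower, against 9.29% of all genes). Klf2 and Rora could pass the filter through the untreated cells alone, where they were higher, so that the share is a description. With the cell richest in each gene left out, 6 of 9 were lower and the median was -1.03, while 16.6% of all genes were lower and their median was -0.14. Rora was -0.58 in lane 1, inside 2-fold, and -5.69 in lane 2. Tbx21, which encodes the factor of IFN-γ producing iNKT cells, and Id2 had log2 ratios of -0.02 and 0.09. Slamf6, a receptor of iNKT cell development, was present in 8 and 5 cells (log2 ratio 1.23) and, with Klrb1c, was one of the genes of iNKT identity that were at least 2-fold higher. Txnip, an inhibitor of glucose uptake, was present in 15 and 95 cells (-1.11). It was the only gene past 2-fold of 10 glycolysis genes compared (10% lower, near the 9.29% of all genes). Of 5 proliferation genes compared 1 was at least 2-fold higher (20%, against 9.43% of all genes). This was Hmgb2, a chromatin protein of dividing cells (1.17, but 0.95 in lane 2 and 0.92 without the cell richest in it). The ribosomal protein genes had a median of -0.16, and 3 of 82 were at least 2-fold lower (3.66%, against 9.29% of all genes).

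In TCR signalling, 2 of 20 genes compared were at least 2-fold higher and 2 at least 2-fold lower, close to the 9.43% and 9.29% of all genes. Prkcq, the protein kinase C of the T cell synapse, was present in 18 and 28 cells (log2 ratio 1.22), and Sla2, an adaptor that dampens TCR signals, in 12 and 22 (1.29, but -0.45 in lane 2 and -0.58 in sub-cluster 2). Its relative Sla was present in 22 and 95 cells (-1.02), and Cish, a cytokine-induced inhibitor of the SOCS family, in 12 and 49 (-1.12). Lck, the proximal kinase of the TCR, had a log2 ratio of 0.07. Of 8 interferon response genes, 1 passed 2-fold each way, again near the share of all genes. These were Ifi203 at 1.12 and Bst2, the antiviral protein tetherin, at -1.52; in lane 2 these were 0.12 and 0.77. Of 6 survival genes compared 1 was at least 2-fold lower (16.7%, against 9.29% of all genes). This was Bcl2l1, which encodes Bcl-xL (-1.37, but -0.01 in lane 2, with 50.5% of its treated counts in 1 cell). Of 6 TCR segments 1, Trbv13-1, was at least 2-fold lower (-1.27), which is 16.7% against 9.29% of all genes. Bcl2l1 and Trbv13-1 could pass the filter through the untreated cells alone, where they were higher.

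Of the B cell list, Ighm, the heavy chain of IgM, was present in 9 treated and 57 untreated cells, with a log2 ratio of -1.35, and the other 4 genes in 0 cells of both. Of 11 further macrophage genes, 10 were present in 0 of the 80 cells, and at least 1 was present in 3 treated and 14 untreated cells. A CD8 T cell gene was present in 1 treated and 3 untreated cells, and an endothelial gene in 1 and 1.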

How the data were processed

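The deposited files for SmartSeq2 hold raw counts per gene and cell; the authors aligned the reads to GRCm38 with STAR, counted them per gene, and did not normalise the deposited counts. There are no molecular identifiers. Symbols were matched for 55141 of 55401 gene IDs, and IDs of the same symbol were summed. Cells were grouped by sample label and by the limits in the report. The members, gene lists and rules were chosen with earlier results of these data known. Per-cell depth is given above; 0 cell names occur in both tables. No doublet caller was run on these singly sorted cells.

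CPM, log2 ratios (prior of 1 CPM), exact intervals and cells thinned to 100000 reads were computed with Python 3.11.15, numpy 2.4.6, pandas 2.3.3 and scipy 1.17.1, and the ratio code was checked on simulated counts. With 1 sample per group no test was made. Named genes are the 12 largest and 12 smallest log2 ratios by the rule in the report (gene models without a name and pseudogenes left out), the 2 most abundant and up to 6 genes past 2-fold of each list, the genes of the limits, and the markers Trac, Cd3e and Nkg7; others were named after their values were seen. TCR chains, rebuilt by the authors with TraCeR, and sub-clusters come from the study's supplementary list. The chromatin and methylation files, among them the authors' own table of differentially methylated regions, were not used here.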

Additional observations from a re-analysis of the deposited data

Results flagged for a closer look

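Data outside the comparison held 1 signal above the control level: 13 of 272 treated cells with at least 100000 counts had at least 100 counts of Lyz2, C1qa and Csf1r (4.78%, exact binomial interval 2.57 to 8.03) and were left out, while 0 of 280 untreated cells had (upper bound 1.31%). The median sum among these 13 cells was 21415 counts.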

How the results depend on the processing

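The counts of genes, the list medians and the ratios of named genes were recomputed under 14 alternatives chosen at the start and 4 chosen after seeing the data (without the treated cells of sub-cluster 5, only sub-cluster 2, without the Alb+ cells, and lane 2 without the Alb+ cells). The shares of cells were recomputed only under the other limits on cells chosen at the start and within lanes, and the TCR and co-carriage results under none. Under the other settings not named here, the counts of genes stayed within 1.5 times, the shares within their counting intervals, and the median genes per cell within the SD over cells. In lane 2 alone, with 21 treated cells, 583 genes were at least 2-fold higher and 641 lower, and 24.4% of the treated cells met the limits; without the Alb+ cells in lane 2 the counts were 959 and 745. With 10 counts in all and no filter on cells, the counts were 2396 and 4100 of 13715 genes. Without the cell richest in each gene, 353 genes were lower and the median of all genes moved to -0.14. Among cells of sub-cluster 2, 355 genes were lower, and the median of all genes was -0.11. Among named genes past 2-fold, the ratios that changed sign were those of Spn (-0.80), Fcer1g (-1.07), Cst7 (-0.43), Sla2 (-0.45) and Bst2 (0.77) in lane 2; the same genes (-0.66, -0.92, -0.29, -0.31 and 0.45) and Bcl2l1 (0.13) in lane 2 without the Alb+ cells; and Klrb1c (-2.95), Cst7 (-0.28), Klrb1f (-0.10) and Sla2 (-0.58) in sub-cluster 2. The cause was not tested. The 24 genes with the highest or lowest ratios by the naming rule kept their sign under every setting but the lane 2 ones, where 22 did; Fcer1g and Spn did not. Of the 24, 18 stayed past 2-fold in each lane 2 setting, 21 in sub-cluster 2 and 23 with under 100 counts on each of the 4 genes. All 24 did under the other settings. No paired analysis was possible because SmartSeq2 has 1 sample per group. Since each group is a pool of 3 mice, differences between mice and between groups cannot be told apart, and low shares rest on few cells.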
